A study of Saccharomyces cerevisiae with 160 samples.

Results

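Transcripts of 9 genes that build and close the bud neck of *Saccharomyces cerevisiae* were followed through time in 9 synchronous cultures of 5 strains. The genes were *MYO1* (YHR023W), *IQG1* (YPL242C), *BNI5* (YNL166C), *BUD3* (YCL014W), *BUD4* (YJR092W), *HOF1* (YMR032W), *CHS2* (YBR038W), *INN1* (YNL152W) and *CYK3* (YDL117W). They were listed as genes of the actomyosin ring and the septum and looked up by symbol in a probe-to-gene table, which gave 1 Affymetrix Yeast 2.0 probe set for each, so 9 of the 5716 yeast probe sets. All 9 were kept whatever their level. An intensity reports how brightly 1 probe set hybridized, so the level of a gene was compared between cultures and times and never with the level of another gene.

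All strains were MATa in the BF264-15DU background, and each culture started from elutriated G1 cells. The Cdc20-depleted strain (cdc20, 2 cultures) was bar1, lacked the native gene (cdc20::LEU2), carried Pgall-CDC20::ADE2, which dextrose shuts off, and CFP-TUB1::URA3. It arrested before anaphase with persistent mitotic CDK, and was sampled every 20 min, over 40 to 300 min for replicate 1 and 20 to 360 min for replicate 2. The cdc8 strain (2 cultures, 30 to 260 min) carried a temperature-sensitive thymidylate kinase allele and was grown in dextrose at the restrictive temperature, where the DNA replication checkpoint is active. The cse4 strain (2 cultures, 90 to 345 min, every 15 min) was bar1 and carried CFP-TUB1. It overexpressed a centromeric histone allele from Pgal-cse4-353::TRP1 in galactose, which activates the spindle assembly checkpoint. The cdc8cdc20 strain (1 culture) joined cdc8ts to the Cdc20 depletion of the first strain. The rad53 strain (2 cultures) added rad53-1, an allele that lacks the activity of the checkpoint kinase. In the paper's strain list both are bar1 and carry CFP-TUB1::URA3. Both were sampled every 18 min from 18 to 360 min. The cdc8 strain alone kept *BAR1*, and it alone is listed without CFP-TUB1. The cse4 strain is the one labelled with galactose, so the medium and the cse4 allele cannot be told apart. The labels give no medium for cdc8cdc20. The paper placed rad53 cells in dextrose medium and states that cdc8cdc20 cells were handled in the same way.

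In budding yeast, septins mark the neck of the bud first, and a ring of type II myosin forms on them. Actin joins the ring late in mitosis, and after mitotic exit the ring constricts while a chitin septum is laid down behind it. Transcripts of many of these genes belong to waves that peak between S phase and mitosis, several of them driven by SFF, the complex of Mcm1, Fkh2 and Ndd1.

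The culture was the replicate. The labels number the cultures of a strain but do not say how they were started, so p-values measure the spread between these cultures. Genes that mark the strains matched the labels. Mean log2 intensity of *CSE4* was 14.30 in cse4 cultures and at most 8.80 elsewhere, and *BAR1* stood at 11.39 in cdc8 cultures and at most 7.10 elsewhere. *HUG1*, a target of the replication checkpoint, was at 11.60 in cdc8 and 12.89 in cdc8cdc20 cultures, against 7.36 in rad53. *CDC20* (8.17 to 9.21 over the strains) did not check the depletion. Between the cultures of a strain, arrest levels of the 9 genes differed by a median of 0.11 on the log2 scale over 36 pairs, and the widest gap, 1.07, was that of *BUD3* in cse4.

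**Figure D1:**
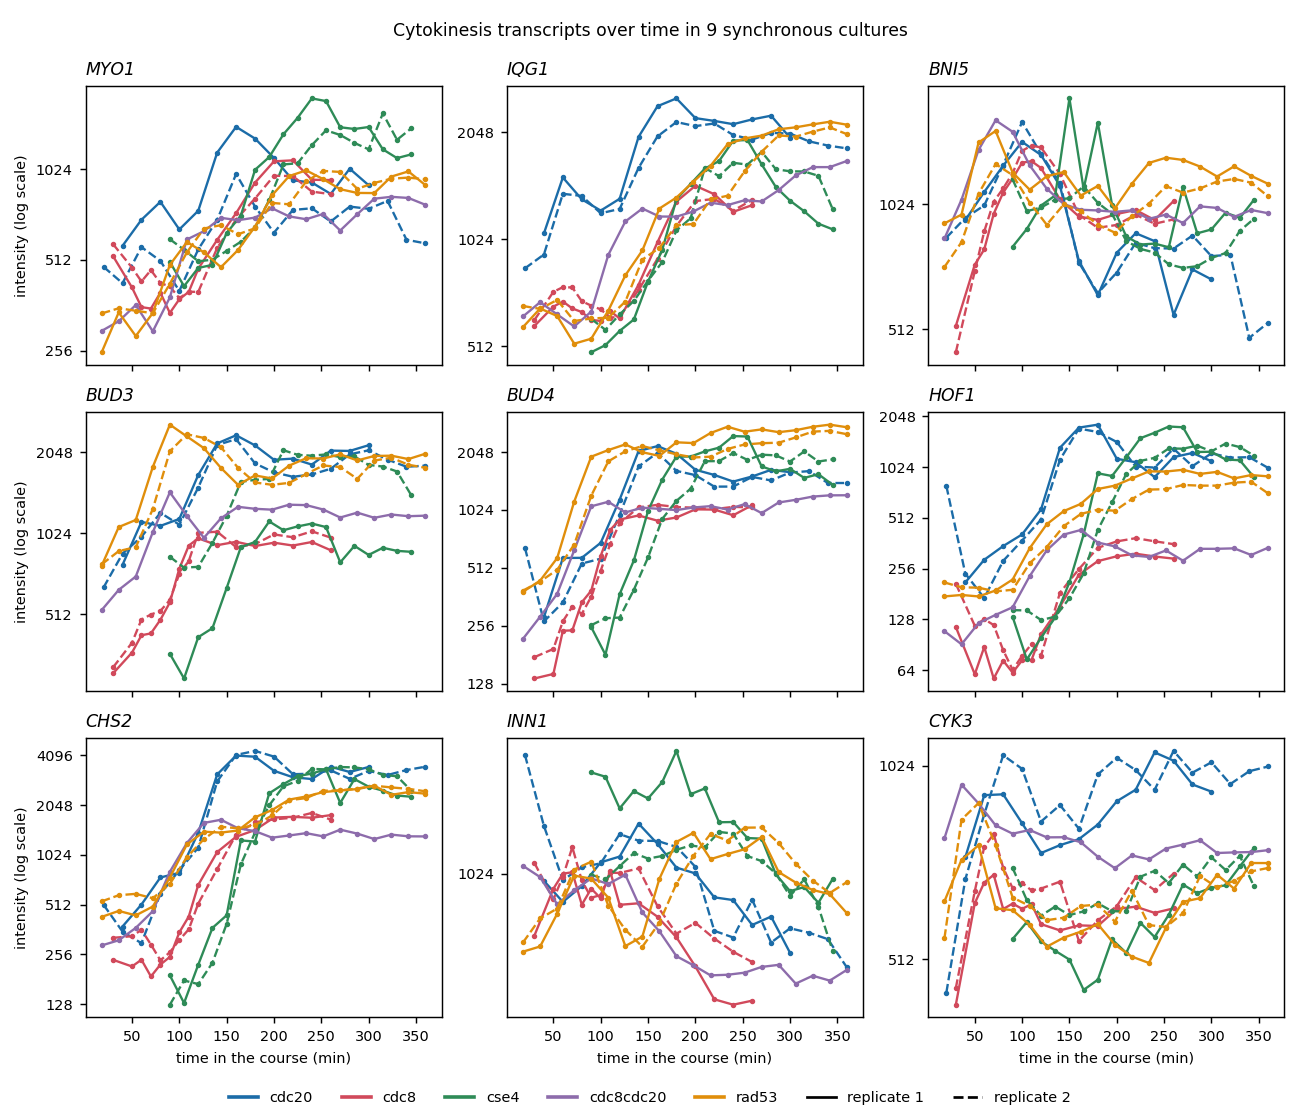
Intensity of each transcript (vertical axis, log scale) against time in the course in minutes, 1 panel per gene, with a colour for each strain, solid lines for replicate 1 and dashed lines for replicate 2. The curves of *BUD3*, *BUD4*, *HOF1*, *CHS2*, *IQG1* and *MYO1* are higher at the arrest than in the start window in all 9 cultures. Some fall before they climb, as *HOF1* and *MYO1* do in cdc8. After the climb some level off, some fall back and *IQG1* in rad53 and cdc8cdc20 climbs further late in the course. *BNI5* peaks early outside cse4, and *INN1* and *CYK3* move over a narrower range.

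Of the 9 members, 6 rose from the start of the course to the arrest in every strain: *MYO1*, *IQG1*, *BUD3*, *BUD4*, *HOF1* and *CHS2*. The start was the mean of the first 2 arrays that the cultures of a strain share, and the arrest the mean of a late window of 5 arrays (6 in cse4), at 200 to 280 min in cdc20, 180 to 260 min in cdc8, 255 to 330 min in cse4 and 198 to 270 min in the other strains. A rise or fall was called by limma on log2(intensity + 1) at a Benjamini-Hochberg adjusted p of at most 0.05 over all 5716 probe sets. In cdc20 cultures 7 of 9 rose (30.6% of all probe sets did) and 1 fell (30.3%). In cdc8 cultures 7 rose (19.5%) and 0 fell (18.2%), and in cse4 cultures 6 rose (28.2%) and 0 fell (31.9%). In the cdc8cdc20 culture 6 rose (22.3%) and 1 fell (24.4%), and in rad53 cultures 7 rose (23.9%) and 1 fell (28.1%). The median change over the members ran from 0.83 in cdc20 to 1.38 in cse4 on the log2 scale, where that over all probe sets lay between -0.05 and -0.01. The intensity of a whole culture does not separate less RNA per cell from fewer cells at that stage.

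*MYO1*, which encodes the type II myosin heavy chain of the ring, stood at 633 and 497 at the start of the cdc20 cultures and at 970 and 719 at the arrest. In cse4 cultures it went from 462 and 577 to 1372 and 1331. The cse4 arrest held the highest *MYO1* levels, above all other cultures, and the cdc8cdc20 culture (708) the lowest. The rise was 0.58 ± 0.13 (log2 change ± SE, n = 2) in cdc20 and 1.51 ± 0.13 (n = 2) in rad53, where the start was dim (298 and 347). Without cdc20 replicate 1 the rise in cdc20 lost its call, with an adjusted p of 0.0628 in limma.

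*IQG1* encodes the IQGAP scaffold that brings actin to the myosin ring. It was brightest at the cdc20 arrest, at 2220 and 2059, against 1325 and 1262 in cdc8, 1453 and 1632 in cse4, 1285 in cdc8cdc20, and 1799 and 1441 in rad53. The cdc20 cultures did not overlap any other culture, and they were already the brightest at the start, at 1295 and 1151 where no other culture exceeded 668. The rise was accordingly smallest in cdc20, at 0.83 ± 0.11 (log2, n = 2), and 1.48 ± 0.11 (n = 2) in cse4. In rad53 cultures *IQG1* went on climbing after the arrest window, to 2190 and 2111 at 342 min. It also climbed after the window in the cdc8cdc20 culture, from 1308 at 270 min to 1699 at 360 min.

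*BNI5* codes for a septin-binding protein that holds Myo1 at the neck early in the cycle, and its transcript peaked early outside cse4. In cdc20 cultures it peaked at 100 min, at 1449 and 1619, and stood at 751 and 798 at the arrest. In cdc8 cultures it peaked at 110 min (1302 and 1420) and held 977 and 928. In cdc8cdc20 and rad53 cultures the first peak came at 72 min, with 1634, 1540 and 1281. The cdc20 arrest thus lay at 51.8% and 49.3% of the first peak and the rad53 arrest at 78.9% and 79.4%. Cultures of cse4 did not agree: replicate 1 had single-array highs of 1845 at 150 min and 1613 at 180 min, whereas replicate 2 was highest on its first array (1176 at 90 min), and the correlation between the cultures' log2 profiles was 0.43 over shared times, against 0.82 to 0.97 in the other strains. From start to arrest *BNI5* fell by 0.38 ± 0.14 (log2, n = 2) in cdc20 and rose by 0.69 ± 0.14 (n = 2) in cdc8, where the start was low (626 and 578). The rise in cdc8 lost its call without either cdc8 culture (adjusted p of 0.0686 and 0.0916), and the fall in cdc20 lost it when any 1 cdc20, cdc8 or rad53 culture was left out (adjusted p of 0.0698 to 0.282).

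*BUD3* and *BUD4* encode partners in the axial landmark, which sits on the septin rings and marks the site of the next bud; Bud4 is related to the anillins of animal cells. *BUD4* rose from 430 and 304 to 1568 and 1448 in cdc20 cultures, from 140 and 185 to 1008 and 1053 in cdc8, and from 412 and 412 to 2587 and 2101 in rad53. The rad53 arrest held its highest levels and did not overlap any other strain, whereas cdc8 and cdc8cdc20 (1048) shared the lowest. *BUD3* reached 1970 and 1773 in cdc20, 923 and 992 in cdc8, 1257 in cdc8cdc20, and 1872 and 1691 in rad53. In cse4 its level was 905 in replicate 1 and 1889 in replicate 2, and the starts differed likewise (330 and 799), so that both cultures rose by a like amount, 1.35 ± 0.09 (log2, n = 2), on separate baselines. *BUD3* overshot in rad53 cells, with 2594 at 90 min (replicate 1) and 2389 at 108 min (replicate 2) and then a low of 1550 in each, reached after 162 and 198 min. This shape was not particular to rad53. In cdc8cdc20 *BUD3* went from 1453 at 90 min to 984 at 126 min and 1307 at 216 min. In cdc20 cultures it peaked at 2368 and 2289, fell to 1842 and 1660 and climbed to 2175 and 2082. *BNI5* and *CYK3* also fell from an early peak and climbed again in both rad53 cultures and in both cdc20 cultures. In cdc20 *BNI5* climbed from 618 and 625 at 180 min to 872 and 826 at 220 min, and fell again later.

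*HOF1*, which encodes an F-BAR protein that binds the septins and later the ring, had among the widest ranges. In cdc20 cultures it rose from 250 and 205 to a peak of 1828 at 180 min and 1732 at 160 min, and settled at 1110 and 1169. In cse4 cultures it rose from 103 and 145 to 1388 and 1339. In cdc8 cultures it went from 88.0 and 163 to only 299 and 366, and in the cdc8cdc20 culture from 100 to 314, while rad53 cultures reached 918 and 708. The 3 cultures with cdc8 inactive and Rad53 intact therefore lay below every other culture, with no overlap.

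*CHS2* encodes chitin synthase II, which makes the primary septum. Its rise was the largest of the 9 in cse4, cdc20 and cdc8cdc20, whereas *BUD4* rose by more in cdc8 (2.67 against 2.63, log2) and in rad53 (2.50 against 2.16). *CHS2* rose by 4.25 ± 0.17 (log2, n = 2) in cse4, where it went from 160.7 and 152.6 to 2653 and 3310, and by 3.10 ± 0.17 (n = 2) in cdc20, where it went from 445 and 326 to 3201 and 3324. In cdc8 it reached 1682 and 1704, in cdc8cdc20 1362 and in rad53 2280 and 2248. Those 3 strains stood in separate bands below cdc20 and cse4, which overlapped each other.

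*INN1* and *CYK3* encode partners that act with Hof1 to switch on Chs2 and start the septum, and they did not rise in all strains. Over a whole course *INN1* spanned a factor of 1.49 to 2.10 and *CYK3* a factor of 1.24 to 2.38. *INN1* fell from 1032 to 729 in the cdc8cdc20 culture, by 0.50 ± 0.18 (log2, n = 1, adjusted p = 0.0486 in limma). It rose in rad53, from 787 and 841 to 1127 and 1164, by 0.49 ± 0.13 (n = 2, adjusted p = 0.0121). The rise in rad53 lost its call without either rad53 culture (adjusted p of 0.0927 and 0.104), and the fall in cdc8cdc20 when any 1 cdc20, cdc8 or rad53 culture was left out (0.0586 to 0.0823). In rad53 replicate 2 *INN1* had 2 crests, 1068 at 90 min and 1203 at 270 min, around a low of 793 at 144 min, and replicate 1 followed the same course (1017 at 72 min, 795 at 126 min, 1181 at 198 min). *CYK3* rose by 0.33 ± 0.09 (n = 2) in cdc20, from 829 and 771 to 983 and 1015, and fell by 0.25 ± 0.09 (n = 2) in rad53, from 680 and 698 to 552 and 599. *CYK3* had an early peak outside cse4, before that of *BNI5*, at 80 min in both cdc20 cultures, 70 min in both cdc8 cultures, 36 min in cdc8cdc20 and 54 min in both rad53 cultures. Without cdc20 replicate 2 the rise lost its call (adjusted p = 0.168), and the fall lost it when any 1 cdc20, cdc8 or rad53 culture was left out (0.0666 to 0.305).

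**Figure D2:**
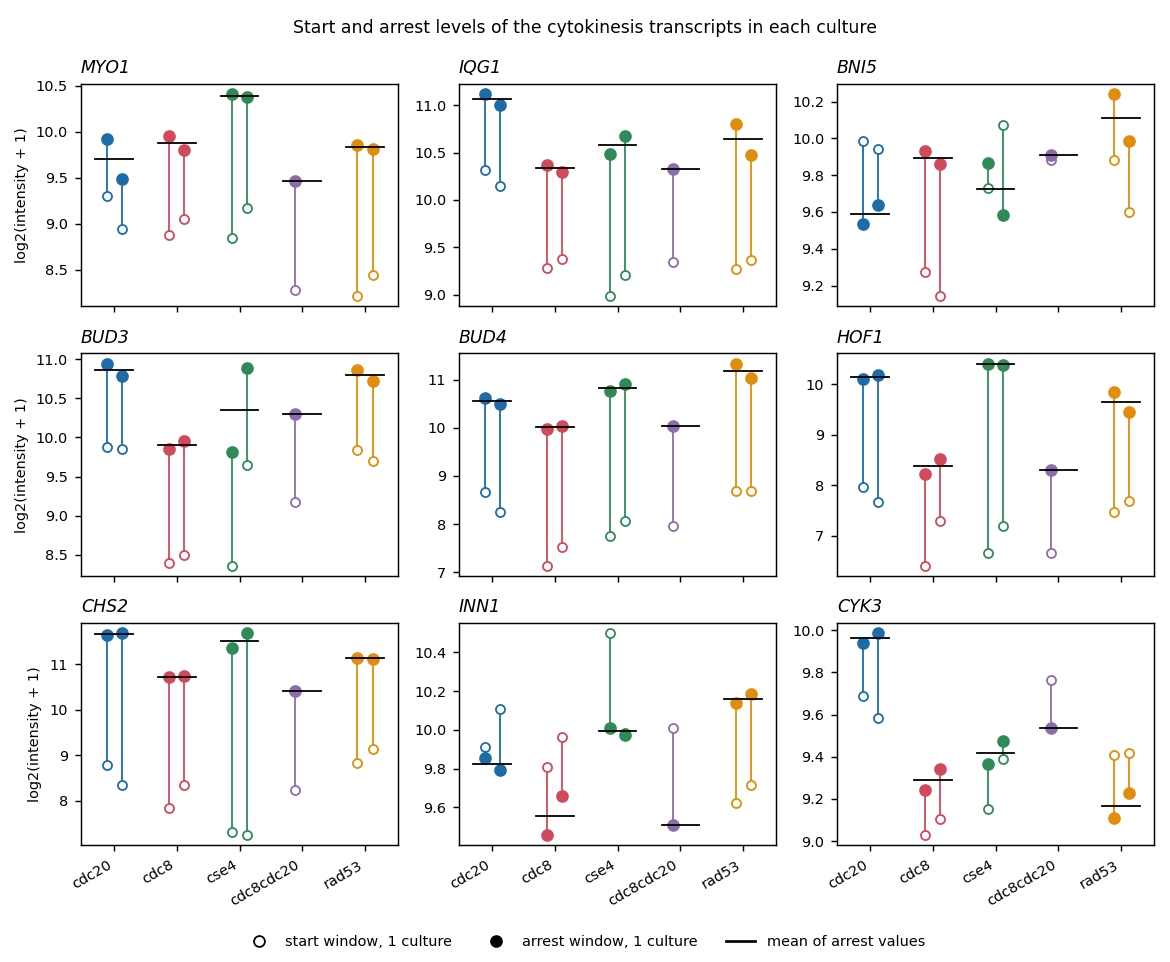
Level of each transcript in the start window (open circles) and the arrest window (filled circles) on the log2(intensity + 1) axis, 1 pair per culture, with the strains along the horizontal axis and a bar for the mean of the arrest values. *HOF1* at the cdc8 and cdc8cdc20 arrests lies below all other cultures, and the cse4 cultures are set apart for *BUD3*.

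The first question was whether cells held by the replication checkpoint carried the same level of these transcripts as cells held by Cdc20 depletion. At the cdc8 arrest 6 of 9 members were lower than at the cdc20 arrest (33.0% of all probe sets were) and 0 were higher (19.1%). *HOF1* fell furthest, by 1.77 ± 0.16 (log2 difference ± SE, n = 2 against 2, adjusted p = 0.000194), a factor of 3.41. *BUD3* was lower by a difference of -0.96 ± 0.30, *CHS2* by -0.94 ± 0.13, *IQG1* by -0.73 ± 0.14, *CYK3* by -0.67 ± 0.11 and *BUD4* by -0.55 ± 0.14. *MYO1*, *INN1* and *BNI5* did not pass the test. The median over the members was -0.67, where that over all probe sets was -0.16. The cdc20 cultures also started above both cdc8 cultures for *HOF1*, *BUD3*, *BUD4*, *IQG1*, *CYK3* and *BNI5*. With each culture's start level subtracted, *BUD3* turned to 0.45 and *BUD4* to 0.57, *BNI5* passed at 1.07, no other member passed (3 of 9 in all, against 42.4% of all probe sets), and *HOF1* kept its direction at -0.81 with an adjusted p of 0.0565. *IQG1* was at 0.17 on that scale. In the test of levels the call of *BUD3* was lost when any 1 cdc20, cdc8 or rad53 culture was left out (adjusted p of 0.0537 to 0.126), and that of *BUD4* without cdc20 replicate 1 or either cdc8 culture (0.0581 to 0.0834).

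Cultures of cse4 were compared with the same cdc20 cultures. There 1 member was higher (17.7% of probe sets) and 2 were lower (27.1%). *MYO1* was higher by 0.69 ± 0.16 (log2, adjusted p = 0.0106), and *CYK3* at -0.54 ± 0.11 (adjusted p = 0.00712) and *IQG1* at -0.49 ± 0.14 (adjusted p = 0.0291) were lower. *HOF1* (0.26 ± 0.16) and *CHS2* (-0.14 ± 0.13) did not pass. In a window of 180 to 260 min for every strain *CHS2* passed at -0.45 (adjusted p = 0.0175) and *MYO1* did not, at 0.47 (adjusted p = 0.123), and *CHS2* also passed without cse4 replicate 2 at -0.31 (adjusted p = 0.0316). Without cdc20 replicate 2 none of these 3 calls held (0 called), and without cse4 replicate 2, the culture with the high *BUD3*, there were 5. The call of *IQG1* was also lost without cdc20 replicate 1, either cdc8 culture or cse4 replicate 1 (adjusted p of 0.0576 to 0.138). With start levels subtracted *IQG1* turned to 0.65 (adjusted p = 0.0133) and *CHS2* to 1.15 (adjusted p = 0.00735).

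Set against each other, the checkpoint arrests differed in 5 members, all lower in cdc8 than in cse4 (19.0% of probe sets were lower and 17.3% higher). *HOF1* again led, by a difference of -2.03 ± 0.16 (log2, adjusted p = 0.000161), a factor of 4.07. *BUD4* at -0.83 ± 0.14, *CHS2* at -0.80 ± 0.13, *MYO1* at -0.51 ± 0.16 and *INN1* at -0.43 ± 0.11 followed. The call of *CHS2* held in every alternative that was run, and that of *HOF1* in every one except the filter on dim probe sets, which removed *HOF1* and left it untested. Without either cdc8 culture *INN1* and *MYO1* lost their calls. *MYO1* was lost without cse4 replicate 1 or either rad53 culture as well (adjusted p of 0.0501 to 0.0679). With start levels subtracted, *BUD4* at -0.25 (adjusted p = 0.288 in limma), *MYO1* at -0.46 (0.0713) and *INN1* at -0.08 (0.736) did not pass. On that scale 4 members passed (44% of all probe sets did): *HOF1*, *CHS2*, *IQG1* and *BNI5*.

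**Figure D3:**
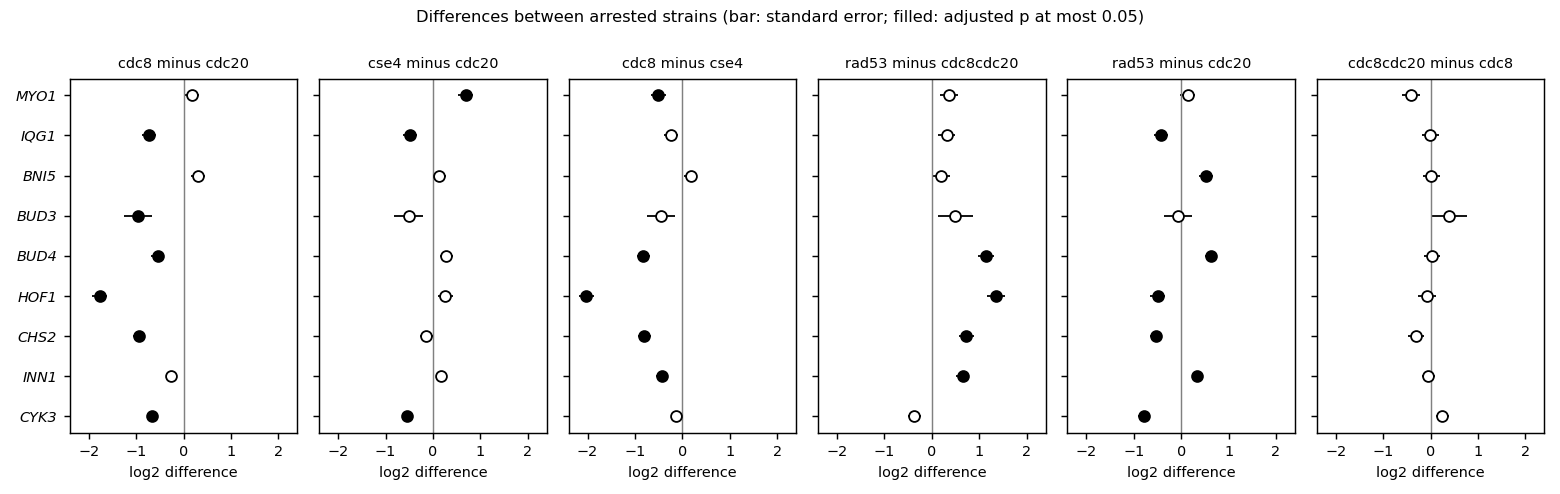
Log2 difference (horizontal axis) of each member between arrested strains in 6 comparisons, with bars for the standard error and filled circles where the limma adjusted p was at most 0.05. *HOF1* reaches -1.77 and -2.03 in the comparisons of cdc8 with cdc20 and cse4, and 1.35 in that of rad53 with cdc8cdc20, while no circle is filled for cdc8cdc20 against cdc8.

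The role of Rad53 was addressed by rad53 against cdc8cdc20, strains that share the cdc8 allele and the Cdc20 depletion. In rad53 cells 4 of 9 members were higher (12.6% of probe sets) and 0 were lower (11.7%): *HOF1* by 1.35 ± 0.20 (log2, adjusted p = 0.00402), *BUD4* by 1.15 ± 0.17 (adjusted p = 0.00402), *CHS2* by 0.73 ± 0.16 (adjusted p = 0.0181) and *INN1* by 0.65 ± 0.14 (adjusted p = 0.0158). The median over the members was 0.50, and that over all probe sets 0.03. The cdc8cdc20 group was 1 culture, whose spread was taken from the other strains in the fit, and without either rad53 replicate 1 or replicate 2 the count was 2, since *CHS2* and *INN1* no longer passed (adjusted p of 0.0636 to 0.0791). With start levels subtracted 1 member passed, *INN1* (28.9% of all probe sets did), while *HOF1* was at 0.43 (adjusted p = 0.414), *BUD4* at 0.43 (adjusted p = 0.183) and *CHS2* at -0.01.

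Against the cdc20 cultures, which served the comparisons above as well, rad53 cells were higher in 3 members (18.6% of probe sets) and lower in 4 (24.2%). *BUD4* (0.63 ± 0.14, log2), *BNI5* (0.52 ± 0.14) and *INN1* (0.34 ± 0.11) were higher. *CYK3* (-0.80 ± 0.11), *CHS2* (-0.53 ± 0.13), *HOF1* (-0.49 ± 0.16) and *IQG1* (-0.42 ± 0.14) were lower. Of these *CYK3* kept its call in every alternative. Leaving out cdc20 replicate 1 left 2 calls (*BUD4* and *CYK3*) and cdc20 replicate 2 left 1 (*CYK3*), either cdc8 culture left 4, and either rad53 culture left 3. Between cdc8cdc20 and cdc8 no member passed, with 0 called in either direction by limma (3.36% of probe sets were higher and 2.55% lower) and 0 with an unadjusted p under 0.05, although a fit of those 2 strains alone called 2, *MYO1* at -0.41 (adjusted p = 0.0481) and *BUD3* at 0.39 (adjusted p = 0.0430).

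The order in which the transcripts rose was read from the midpoint time, the moment when a curve crossed the midpoint between its maximum and the lowest value before it; this readout was chosen after the profiles had been seen and has no test. *INN1* and *CYK3* are not plotted, whereas *BNI5*, which like them did not rise in all strains, is. The midpoint of *CYK3* came before that of *BNI5* in 7 of 8 cultures, cse4 replicate 1 being the exception. Among the other 7 genes *BNI5* came first in the 8 cultures where it had a rise before its maximum, *BUD3* next and *BUD4* after it, and *BUD3* preceded *BUD4* in 9 of 9 cultures. The midpoint of *BUD4* came 5.91 to 22.8 min after that of *BUD3* (median 7.14 min). In most cultures this was less than the time between arrays, so that order rests on interpolation. *BUD4* in turn preceded *CHS2*, *HOF1*, *MYO1* and *IQG1* in 9 of 9. Among these last 4 no order held in all cultures: *CHS2* preceded *IQG1* in 8, *HOF1* preceded *MYO1* in 8 and *CHS2* preceded *HOF1* in 6.

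The spacing of those steps differed between strains. From *BUD4* to *CHS2* the lag was 7.77 and 9.10 min in cdc20, under the 20 min between arrays. It was 35.0 and 40.1 min in cdc8, 26.2 and 7.80 min in cse4, 22.1 min in cdc8cdc20, and 86.7 and 86.1 min in rad53. The lag from *BUD4* to *HOF1* had a similar course, at 9.93 and 9.43 min in cdc20, 47.0 and 44.5 min in cdc8, 19.3 and 20.3 min in cse4, 38.2 min in cdc8cdc20, and 67.3 and 57.4 min in rad53. In rad53 cells the landmark genes were thus at the midpoint of their rise by 68.7 to 98.8 min, and *CHS2* only at 169 and 185 min. That midpoint was set by a late maximum of *CHS2*, 2686 and 2684 at 306 min. A first step of its rise came earlier and ended on a plateau just below the midpoint. *CHS2* was at 1415 at 126 min and 1438 at 162 min in replicate 1, and at 1515 at 144 min and 1484 at 162 min in replicate 2. The lags in rad53 therefore do not time this first step, and the courses of the strains differ in length.

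**Figure D4:**
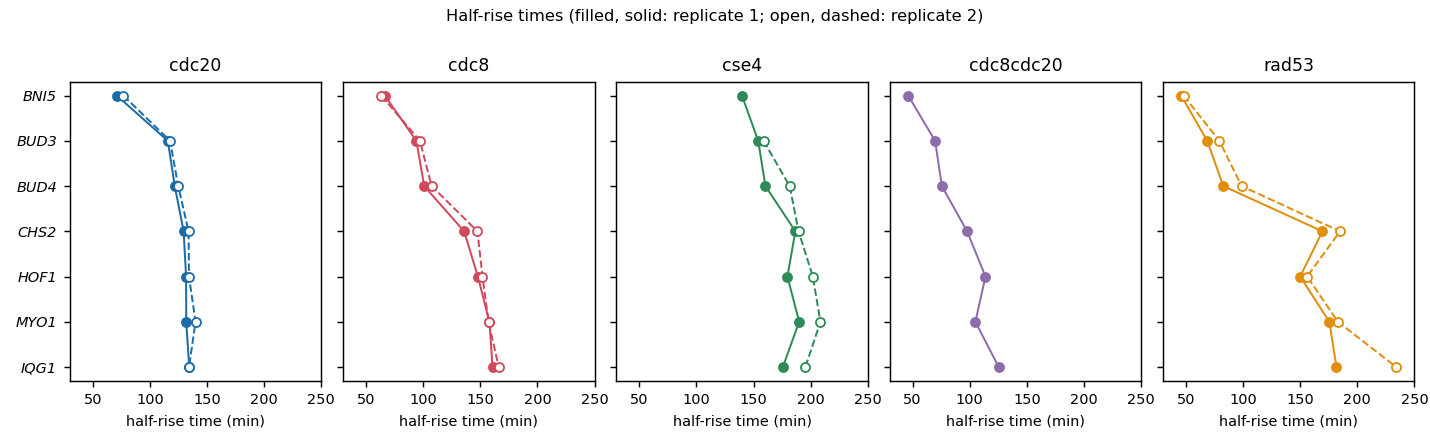
Midpoint time of the rise in minutes (horizontal axis) of 7 members, 1 panel per strain, with filled circles and solid lines for replicate 1 and open circles and dashed lines for replicate 2. The 4 lower genes crowd within 15.2 min after *BUD4* in cdc20 cultures and lie 57.4 min or more after it in rad53 cultures.

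The shapes of the curves were compared between members. Pearson correlations of log2 profiles were computed within each culture and averaged over the 9 cultures; the points of a curve share their culture and are not replicates, so these are descriptions. *HOF1*, *CHS2*, *MYO1* and *IQG1* had mean correlations of 0.91 to 0.96 with each other, and *BUD3* and *BUD4* one of 0.94. *BUD4* and *CHS2*, at 0.93, were as alike as many pairs of the former 4, and *BUD3* had 0.68 to 0.83 with those 4. *BNI5*, *INN1* and *CYK3* had mean correlations between -0.34 and 0.30 with the other members. The profiles repeated between the cultures of a strain with correlations of 0.86 or more for the 6 rising genes, of 0.60 to 0.84 for *INN1* and of 0.67 to 0.89 for *CYK3*.

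Of all other named genes, the profile most like that of *HOF1* belonged to YMR030W-A (mean correlation 0.99), the next gene along the chromosome with 0 genes between them in the RefSeq R64 annotation. It was followed by *MMR1* and *ASE1* (0.95 each), for the mitochondrial inheritance factor and the spindle midzone protein. *CHS2* was most like *MMR1*, *SWI5* and *FRK1* (0.97 each), and *BUD4* most like *ALK1* (0.97), *SWI5* (0.95) and *FRK1* (0.94). *BUD3* was nearest to *ALK1* (0.91) and the mitotic cyclin gene *CLB2* (0.89), *IQG1* to YNL058C (0.94), *KIN3* (0.93) and *SPO12* (0.92), and *MYO1* to YMR030W-A (0.93), *NBA1* (0.92) and YBR138C (0.91). For *BNI5*, *INN1* and *CYK3* the best mean correlations were only 0.83 (*OGG1*), 0.76 (*RPD3*) and 0.72 (*MAE1*).

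Lists of related genes give the setting of these values. Of 17 ring and septum partners found on the array (actin, tropomyosins, formins, Rho1 and its activators, glucan and chitin synthases and neck proteins), 6 rose and 6 fell in cdc20 (30.6% and 30.3% of all probe sets did), and the list's median change was 0.13. At the cdc8 arrest 3 of them were higher and 5 lower than in cdc20 (19.1% and 33.0% of all probe sets), so that these counts were near the background. *SKT5* (-0.96) and *CHS3* (-0.64), which serve chitin synthase III, were among the lower, and *TPM2* (0.87), a tropomyosin, was higher. In cse4 1 partner, the neck gene *AIM44*, was higher than in cdc20 (17.7% of all probe sets were), by 1.07 ± 0.13 (log2). There 3 were lower (27.1%), *SKT5* (-1.40), *CHS3* (-1.12) and *CHS1* (-0.56). Of the 5 septin genes, 5 rose in rad53 (23.9% of all probe sets) and 4 in cdc8 (19.5%), with *CDC11* higher in rad53 than in cdc8cdc20 by 1.48 ± 0.17.

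Of 14 targets of SFF found on the array, 13 rose in cdc20 (30.6% of all probe sets did), 13 in cdc8 (19.5%), 14 in cse4 (28.2%), 10 in cdc8cdc20 (22.3%) and 13 in rad53 (23.9%). Their median changes were 1.12 to 2.24 on the log2 scale. At the arrest 9 were lower in cdc8 than in cdc20 (33.0% of all probe sets) and 0 higher (19.1%), with a median of -0.66. In rad53 against cdc8cdc20 6 were higher (12.6%) and 0 lower (11.7%), with a median of 0.57. *SWI5*, for a transcription factor of the M/G1 transition, was at -1.09 ± 0.23 in the former, and *KIP2*, for a kinesin, at 1.14 ± 0.12 in the latter. Genes of the mitotic exit network, which triggers ring closure, were lower in 7 of 12 in cdc8 than in cdc20 (33.0% of all probe sets were), among them *CDC14* (-0.99) and *TEM1* (-0.79). In cse4 likewise 7 of 12 were lower than in cdc20 (27.1% of all probe sets) and 1 was higher (17.7%). The lists share genes, *CDC5*, *DBF2* and *MOB1* being in both the SFF and the mitotic exit list.

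Periodicity was scored with a Lomb-Scargle periodogram at a test period of 2.47 h on the intensities of the first 13 arrays of a culture, and a gene was called when p, used as a score, was at most 0.5 in every culture of a strain. Among the members 0 were called in cdc20 (4.27% of all probe sets), 2 in cdc8 (57.5%), *HOF1* and *BNI5*, 0 in cse4 (6.86%), 0 in cdc8cdc20 (9.01%) and 1 in rad53 (13.6%), *BUD3*. In cdc8 the first 13 arrays run from 30 to 200 min and in cse4 from 90 to 270 min. Little more than 1 such period was covered there. In cdc8cdc20 and rad53 they run from 18 to 234 min, and in no strain did they cover 2 full periods. With a linear trend removed first, the counts were 5 in cdc20 (7.30% of all probe sets), 7 in cdc8 (66.8%), 8 in cse4 (23.4%), 7 in cdc8cdc20 (42.1%) and 4 in rad53 (42.8%). Read from 1 culture, the counts were the same or higher, as fewer cultures have to pass. No share of all probe sets was computed for that rule, so nothing is drawn from it. A second climb of at least 1.5-fold, from the lowest value at or after the first peak to a later high, was found in every culture for 0 members in cdc20 (20.2%), cdc8 (19.0%), cse4 (12.5%) and cdc8cdc20 (17.3%), and for 3 in rad53 (28.1%), *IQG1*, *MYO1* and *CHS2*. In those 3 the climb followed a first peak at the edge of the arrest window or a small dip, and the curves in the plot of intensity by time show a rise that goes on and no return to the start level.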

How the data were processed

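The deposited values were linear intensities of 5900 Affymetrix Yeast 2.0 probe sets on 160 arrays, which the authors had made with affy 1.32.1 (invariant-set normalization, no background correction, perfect-match probes, Li-Wong summary) after masking *S. pombe* probes, together with arrays of earlier studies that are not analysed here. Normalization across strains assumes like total RNA. The 184 controls were left out. Array medians were 1020 to 1284. The number of arrays limits precision.

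Values were used as log2(intensity + 1), averaged per culture and window, and compared in R 4.3.3 with limma 3.58.1 in 1 fit of all 9 cultures (adjusted p at most 0.05). Profiles used Python 3.11.15 and scipy 1.17.1, with figures by matplotlib 3.10.9. Scripts were tested on simulated data. The last cse4 arrays carry conflicting times in their labels (345 min was used) and lie outside the windows.

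All 9 members are named, with up to 4 called examples per list and the 3 most alike genes. Members and lists were chosen with earlier results of these data known. No sequence was used here. A further gene list is not reported here.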

Additional observations from a re-analysis of the deposited data

Results flagged for a closer look

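A single array stood apart from the others of its window in 2 of 81 arrest windows. The rule flags about 1 in 20 windows of independent values, but the arrays of a window follow each other in time, so that rate does not apply. *CHS2* in cdc8 replicate 1 was at 1447 at 180 min, against 1717 to 1782 on the later arrays, and *BUD4* in cse4 replicate 1 was at 2468 at 255 min, against 1504 to 1724 later. Both were the first array of their window, and *BUD4* was at 2482 on the array before it, at 240 min.

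The change from start to arrest differed between strains in 19 of 54 tests (limma on the difference of changes, log2 scale, adjusted p 0.00177 to 0.0428, n = 2 cultures a strain except cdc8cdc20). The share of all probe sets that passed was 28.9% to 51.5%, and several comparisons share the cdc20 cultures. Relative to cdc20, the change in cdc8 was larger for *BUD3* (by 0.45), *BUD4* (0.57) and *BNI5* (1.07). In cse4 it was larger than in cdc20 for *HOF1* (1.15), *IQG1* (0.65), *MYO1* (0.80), *CHS2* (1.15) and *BUD4* (0.82). Between cdc8 and cse4 it differed for *HOF1* (-1.96), *IQG1* (-0.48), *CHS2* (-1.62) and *BNI5* (0.87). Rad53 cultures exceeded cdc20 for *IQG1* (0.49), *MYO1* (0.93), *INN1* (0.68) and *BNI5* (0.75), and lay below it for *CHS2* (-0.94) and *CYK3* (-0.57). *INN1* rose by 0.49 in rad53 and moved by -0.50 in cdc8cdc20, a difference of 0.99.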

How the results depend on the processing

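The filter on dim probe sets removed *HOF1*, which has no value there. With that exception, the rises of *BUD3*, *BUD4*, *HOF1*, *CHS2* and *IQG1* kept direction and call in all 5 strains under every alternative run, and of 36 called changes 29 did so; of 27 arrest differences reported 3 did (*HOF1* and *CHS2* in cdc8 against cse4, *CYK3* in rad53 against cdc20). With start levels subtracted they were 3 for cdc8 against cdc20, 5 for cse4 against cdc20 and 1 for rad53 against cdc8cdc20, and these differences turned: *IQG1* to 0.17, *BUD3* to 0.45 and *BUD4* to 0.57 in cdc8 against cdc20, *IQG1* to 0.65 and *CHS2* to 1.15 in cse4 against cdc20, *CHS2* to -0.0112 in rad53 against cdc8cdc20, and *IQG1* to 0.49 in rad53 against cdc20. With the last 5 arrays as the window the counts were 3 for cdc8 against cse4 and 3 for rad53 against cdc20, where *IQG1* was at 0.0251, and the *CYK3* change in rad53 was at 0.0130. In a fit of only the strains compared they were 0 for cse4 against cdc20, 3 for cdc8 against cse4 and 2 for cdc8cdc20 against cdc8. For cse4 against cdc20, *HOF1* was at -0.22 with a clock window of 180 to 260 min, and *CHS2* at 0.0012 after quantile normalization and from -0.31 to 0.0251 without 1 cse4 culture. With start levels subtracted, *BUD4*, *MYO1* and *INN1* lost their calls in cdc8 against cse4. With the replicate block the count for rad53 against cdc20 was 4. The replicate numbers correlated between strains at -0.28 to 0.21 (above 0.1 in 2 of 6 pairs of strains), so they only name samples, and the block moved no other count by over 1.5 times.

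Leaving out 1 culture gave 4 to 8 members for cdc8 against cdc20, 0 to 5 for cse4 against cdc20, 3 to 5 for cdc8 against cse4, 2 to 6 for rad53 against cdc8cdc20, 1 to 7 for rad53 against cdc20 and 0 for cdc8cdc20 against cdc8. For the changes it gave 6 to 8 in cdc20, 6 to 9 in cdc8, 6 to 7 in cse4, 6 to 7 in cdc8cdc20 and 6 to 9 in rad53. For periodic members it gave 0 to 1 in cdc20, 2 to 4 in cdc8, 0 to 2 in cse4 and 1 to 3 in rad53. Removing a linear trend raised periodic members to 5 in cdc20, 7 in cdc8, 8 in cse4, 7 in cdc8cdc20 and 4 in rad53. All time points gave 1 in cdc8 and 0 in rad53, and the best of several test periods gave 2 in rad53. Smoothing moved 4 of 45 first peak times, and the second climb moved in 6 of 10 tries at a lower and a higher threshold. The counts in this section stand without the share of all probe sets under the same setting, and they show only how far the calls moved. The cause was not tested in any of these.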

Other observations

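The first array of cdc20 replicate 2, at 20 min, has no counterpart in replicate 1 and entered no test of levels or changes. It did enter the periodogram, the midpoint times, the correlations between genes and the whole-course ranges. The widest ranges of *INN1* (a factor of 2.10) and *CYK3* (2.38) rest on it. On it *HOF1* was at 790, *BUD4* at 649 and *INN1* at 1548, against 239, 269 and 1210 at 40 min in the same culture, while *CYK3* was at 454 and then at 681.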
